A study of Mus musculus with 18 samples.

Results

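Immunoglobulin genes encode the heavy and light chains of antibodies and of the B cell receptor. The genes described here are the variable and constant genes of the heavy, kappa and lambda loci. They were taken by symbol, as every row of the authors' deposited DESeq2 tables that begins with Ighv, Igkv, Iglv, Ighg, Igha, Ighm, Ighd, Ighe, Igkc or Iglc, without Ighmbp2, a DNA and RNA helicase gene that shares only the start of its symbol. The rule found 65 genes among the 22477 listed in either table. Of these, the table for bone marrow listed 16 among 14423 genes, that for spleen 64 among 21830, and 15 were in both. The series measured RNA by QuantSeq, which reads transcripts near their polyadenylated 3' end, in cells dissociated from C57BL/6 mice. Untransplanted bone marrow was compared between 4 Cgas-/- libraries, which lack the cytosolic DNA sensor cGAS, and 4 Trex1-/-;Sting1gt/gt libraries, called dKO, which lack the exonuclease TREX1 and carry the goldenticket allele of the STING gene. Spleen was compared between 5 dKO recipients of Cgas-/- marrow and 5 dKO recipients of dKO marrow, all lethally irradiated and sampled 12 weeks after transplantation, so that every spleen had a dKO host and the labels differ in the marrow graft alone. All changes below are log2 fold changes, Cgas-/- over dKO, with their standard errors. The labels give no sex, and in spleen the male-specific genes Ddx3y (-4.76 ± 0.481), Uty (-5.09 ± 0.633) and Eif2s3y (-5.28 ± 0.573) were lower with Cgas-/- marrow, each past the adjusted DESeq2 threshold by the authors' deposited table. Graft genotype and sex, of donors or hosts, therefore cannot be told apart in the spleen comparison. In bone marrow, Xist, expressed from the inactive X chromosome, was at -0.10 ± 1.65 with a mean of 3563 by the authors' deposited table. Its standard error compares with a median of 0.0953 over bone marrow genes with a mean of at least 500. Ddx3y, Uty and Eif2s3y were not listed for bone marrow. Whether sex varied among the bone marrow libraries was not tested. How many host B or plasma cells were left in the recipients, the ages of the mice and whether each library came from another mouse are not given in the labels.

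A developing B cell joins a variable, a diversity and a joining segment of the heavy locus, and a variable and a joining segment of a light locus, and each joined exon is spliced to a constant exon group at the 3' end of the transcript. A mature naive B cell carries the mu and delta constant regions (IgM and IgD) on its surface. After class switching the same heavy chain variable exon is joined to a gamma, epsilon or alpha constant gene (IgG, IgE, IgA), and plasma cells, which develop from activated B cells, transcribe immunoglobulin genes at very high rates and secrete the product. In C57BL/6 mice the IgG subclasses are IgG1, IgG2b, IgG2c and IgG3, and most antibodies carry a kappa light chain.

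No immunoglobulin gene passed the test in either tissue. Of the 16 members in the bone marrow comparison, 0 passed a DESeq2 adjusted p of 0.05 by the authors' deposited table, against 0.534% of all genes. At an unadjusted p under 0.05 that table held 1 member lower (Ighe) and 0 higher, against 4.65% and 4.19% of all its genes. For spleen, the authors' deposited table had 0 of 64 members past that DESeq2 threshold, against 0.133% of all genes, and every member had an adjusted p of 0.999997. There, 2 members (Ighg2b and Ighg2c) were lower and 1 (Iglc3) was higher at an unadjusted p under 0.05, against 1.85% and 1.17% of all genes. The standard errors of these genes were large for their level and are described after the values of each class. Both targeted genes passed the same tests. By the authors' deposited tables, Cgas was at -1.13 ± 0.155 in bone marrow and, as Mb21d1, at -0.92 ± 0.217 in spleen. Trex1 was at 1.45 ± 0.178 and 2.71 ± 0.199 in the authors' deposited tables.

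The number of genes listed differed by class. All 8 heavy chain constant genes that GENCODE M21 annotates on GRCm38 were in both tables. Of 5 light chain constant genes, all 5 were listed for spleen and 4 for bone marrow, without Iglc4. Of 185 annotated Ighv genes, 115 of them not pseudogenes, 2 were listed in bone marrow and 3 in spleen. Of 160 annotated Igkv genes, 60 of them pseudogenes, 0 were listed in bone marrow and 45 in spleen. The 3 Iglv genes were all in the spleen table, and 2 were in the bone marrow table. None of the 20 diversity segments, whose symbols also begin with Ighd, was in either table. The smallest mean normalized count listed was 6.46 for bone marrow and 0.239 for spleen, so a gene at the level of most spleen Igkv genes could not appear in the first.

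The constant genes carried almost all of the counts. A 3' tag count does not scale with transcript length, so counts are compared between genes without dividing by length. Together the members held 0.813% (bone marrow) and 2.39% (spleen) of the summed means in the authors' deposited tables. Variable genes held 0.0856% of the members' sum in bone marrow and 0.196% in spleen. For Igkc, the single kappa constant gene, the authors' deposited tables gave means of 41628 (bone marrow) and 46805 (spleen), ranks 14 and 4 among all genes. Ighm, the mu gene, followed with 19960 and 36524. The 2 tables were normalized separately, so these means are set side by side and not tested against each other.

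By shares of the heavy constant sum computed from the authors' deposited tables, Ighm made up 58.5% in bone marrow and 68.1% in spleen. Igha held 18.4% and 12.2%, and the 4 IgG genes together 21.3% and 12.4%. Ighd held 1.78% in bone marrow and 7.19% in spleen, so that the ratio of Ighm to Ighd means was 32.8 and 9.48. Among the IgG genes Ighg2b was the highest in both tables, at 8.82% and 4.84% of the heavy constant sum. Ighe, the epsilon gene of the least abundant isotype, held 0.0208% and 0.0523%. Kappa exceeded lambda by a ratio of means of 13.1 in bone marrow and 5.55 in spleen. Within lambda, Iglc1 was highest in both, at 3.78% and 5.93% of the light constant sum, and Iglc4 was at 0.00460% in spleen. These shares pool the libraries of both groups and have no replicate error of their own.

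**Figure D1:**
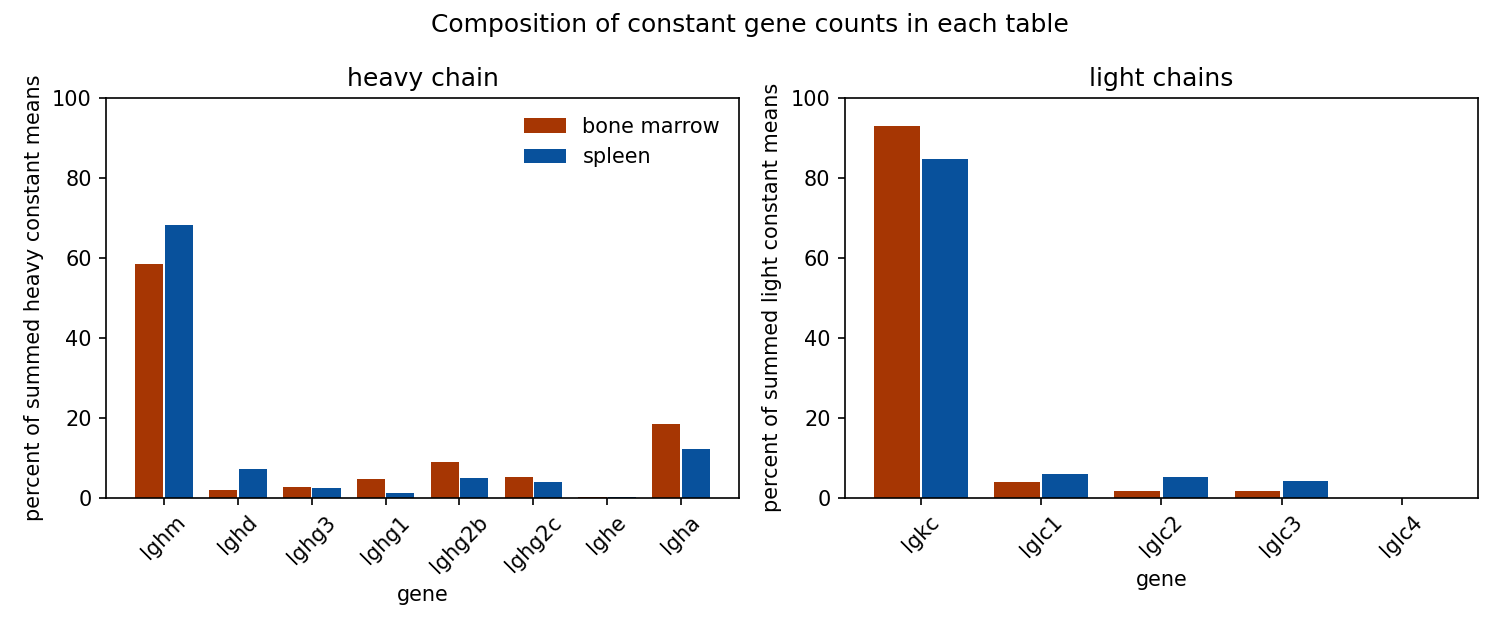
Each bar is a constant gene's percent of the summed mean normalized counts of the heavy (left) or light (right) constant genes, in bone marrow (brown) and spleen (blue), over the libraries of both groups. Ighm and Igkc are the highest bars in both tables, and Ighd is 1.78% of the heavy sum in bone marrow and 7.19% in spleen.

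Among heavy constant genes in spleen, the naive B cell isotypes had the narrowest intervals. The authors' deposited table for spleen put Ighm at -0.04 ± 0.145 and Ighd at -0.01 ± 0.0984. The 95% Wald intervals computed from those values run from -0.33 to 0.24 for Ighm and from -0.21 to 0.18 for Ighd. In bone marrow Ighm was at -0.46 ± 0.495 (DESeq2 adjusted p = 0.907) and Ighd at 0.16 ± 0.136 (0.856), by the authors' deposited table. The bone marrow interval of Ighm, from -1.43 to 0.51, was several times as wide as that in spleen, although its mean there was 19960. Mature B cell genes had medians of 0.05 in bone marrow and 0.00 in spleen over all 18 on the list, which includes Ighd. By the authors' deposited tables none of these passed the DESeq2 adjusted p. An unadjusted p under 0.05 was found for 0 in bone marrow and for 2 in spleen, 1 in each direction.

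Among constant genes in spleen, Ighg2c and Ighg2b had the log2 fold changes farthest from 0. By the authors' deposited table, Ighg2c (mean normalized count 2144) was at -1.58 ± 0.743, a 2.99-fold lower level in recipients of Cgas-/- marrow (DESeq2 unadjusted p = 0.0333). Its 95% interval ran from -3.04 to -0.12. Ighg2b (mean 2594) was at -1.01 ± 0.441 in the authors' deposited table, 2.01-fold lower (DESeq2 unadjusted p = 0.0223). Ighg3 (mean 1304) was at -0.78 ± 0.848 and Ighg1 (mean 606) at 0.11 ± 0.787 there, neither with an unadjusted DESeq2 p under 0.05. Thus 3 of the 4 IgG genes lay below 0, against 55.0% of all spleen genes, and 0 of the 4 passed the DESeq2 adjusted p of 0.05. Their median was -0.89, where the median of all spleen genes was -0.03. IgG2c and IgG2b are subclasses that fix complement and bind activating Fc receptors well, and IgG1 is typical of responses to protein antigens with T cell help.

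In bone marrow all 4 IgG genes had wider errors than in spleen, and 3 of the 4 lay closer to 0, Ighg1 being the exception. By the authors' deposited table, Ighg2c was at -0.65 ± 1.11, Ighg1 at -0.56 ± 1.11, Ighg3 at -0.24 ± 1.27 and Ighg2b at 0.21 ± 1.02, with DESeq2 adjusted p from 0.953 to 0.994. Their median was -0.40, and each 95% interval spanned 0. Ighg2b ran from -1.79 to 2.21, so a difference of several fold in either direction was not detectable in these libraries.

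The 4 IgG genes lie between Ighd and Ighe on the minus strand of chromosome 12 and are close relatives, so the ends of their coding sequences were compared. Where the 3' tags fell was not measured. The 93 (Ighg3) to 107 (Ighg2b and Ighg2c) bases after the coding end of these transcripts are not shown. The lines below are the last 90 coding bases before the stop codon of the secreted form, 5' to 3' on the minus strand, from GENCODE M21 transcripts (GRCm38). Capitals mark bases that differ from Ighg2b.
Ighg2b (chr12:113306392-113306481): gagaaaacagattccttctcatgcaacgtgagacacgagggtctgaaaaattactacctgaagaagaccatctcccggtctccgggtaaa
Ighg2c (chr12:113287392-113287481): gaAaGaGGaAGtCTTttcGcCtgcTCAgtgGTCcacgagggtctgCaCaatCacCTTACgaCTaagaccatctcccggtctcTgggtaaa
Ighg1 (chr12:113328979-113329068): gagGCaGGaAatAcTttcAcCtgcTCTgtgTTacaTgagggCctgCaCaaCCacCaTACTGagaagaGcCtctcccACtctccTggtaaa
Ighg3 (chr12:113359668-113359757): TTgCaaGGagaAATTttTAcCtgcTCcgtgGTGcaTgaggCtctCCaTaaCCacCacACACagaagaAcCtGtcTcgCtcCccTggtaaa
Ighg2c differed from Ighg2b at 28 of the 90 bases, Ighg1 at 31 and Ighg3 at 36. Over their whole transcripts, 5.49% of the 50-base stretches of Ighg2c also occur in another annotated gene, 4.15% of those of Ighg2b, 1.58% of those of Ighg3 and 0.393% of those of Ighg1. The read length is not given in the sources used here, and single IgG values are uncertain to the extent that reads fell in those stretches.

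Igha, the constant gene of mucosal antibodies, had opposite signs in the 2 tissues without passing in either. The authors' deposited tables gave 0.55 ± 0.583 in bone marrow (mean 6272, DESeq2 adjusted p = 0.903) and -0.33 ± 0.775 in spleen (mean 6552). Ighe was the member with the smallest p of all in bone marrow, at -2.57 ± 0.957 in the authors' deposited table (DESeq2 unadjusted p = 0.00716, adjusted p = 0.281). Its mean normalized count there was 7.09, which is 56.7 normalized counts over the 8 libraries, and its fitted fold change gives no bound at that level. In spleen, at a mean of 28.0, Ighe was at -0.35 ± 1.06 in the authors' deposited table.

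Among light chain genes, the authors' deposited tables put Igkc at -0.33 ± 0.670 in bone marrow (DESeq2 adjusted p = 0.969) and at -0.28 ± 0.257 in spleen. Igkc overlaps Gm30211, a long noncoding RNA gene on the same strand with means of 30.7 and 99.4. Of the stretches of Igkc transcripts, counted as for the IgG genes, 0% occur in another annotated gene. The overlap was therefore one of gene spans and not of such shared stretches. In bone marrow all 3 listed lambda constant genes were below 0 in the authors' deposited table, Iglc1 at -0.48 ± 0.814, Iglc3 at -0.40 ± 0.254 and Iglc2 at -0.14 ± 0.408. In spleen the authors' deposited table gave 0.00 ± 0.303 for Iglc1, 0.04 ± 0.0983 for Iglc2 and 0.20 ± 0.0880 for Iglc3, a 1.15-fold higher level (DESeq2 unadjusted p = 0.0244). Iglc4, with a mean of 2.54 in spleen, was at -0.87 ± 0.832 in the authors' deposited table.

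**Figure D2:**
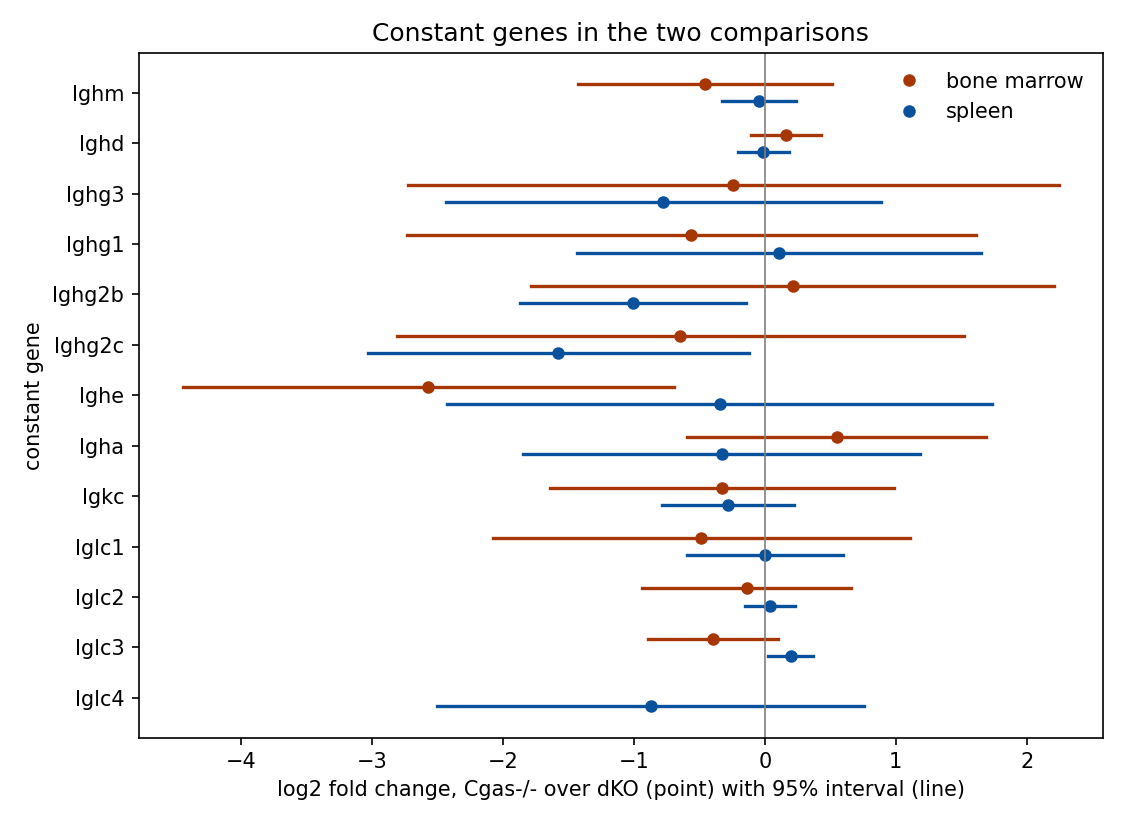
Points are log2 fold changes of the constant genes, Cgas-/- over dKO, from the authors' deposited tables, and lines their 95% Wald intervals, in bone marrow (brown) and spleen (blue). Ighe in bone marrow and Ighg2b, Ighg2c and Iglc3 in spleen have intervals that leave out 0, and none passed after adjustment over all genes.

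The coding ends of the lambda constant genes fall into near-identical and more distant copies, which bears on the values of Iglc2 and Iglc3. The 143 (Iglc2) and 138 (Iglc3) bases after the coding end of these transcripts are not shown, and where the 3' tags fell was not measured. The lines below are the last 90 coding bases of each before the stop codon, on the minus strand of chromosome 16, 5' to 3', from GENCODE M21 transcripts (GRCm38). Capitals mark bases that differ from Iglc2.
Iglc2 (chr16:19198539-19198628): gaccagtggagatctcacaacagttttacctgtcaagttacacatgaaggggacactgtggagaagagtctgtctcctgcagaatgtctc
Iglc3 (chr16:19065368-19065457): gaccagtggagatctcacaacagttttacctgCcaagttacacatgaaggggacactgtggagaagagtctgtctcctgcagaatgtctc
Iglc1 (chr16:19061755-19061844): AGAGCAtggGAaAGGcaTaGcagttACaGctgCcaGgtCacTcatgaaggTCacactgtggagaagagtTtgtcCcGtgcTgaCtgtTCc
Iglc4 (chr16:19195002-19195091): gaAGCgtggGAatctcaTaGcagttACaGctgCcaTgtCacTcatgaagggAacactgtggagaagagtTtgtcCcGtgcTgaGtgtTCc
Iglc3 differed from Iglc2 at 1 of the 90 bases, Iglc4 at 22 and Iglc1 at 29. Of the 50-base stretches of Iglc3, 22.3% occur in another annotated gene, 10.7% in Iglc2. Of those of Iglc2, 7.65% occur in Iglc3. The authors' counting could split reads from these stretches between the pair, and their single values are uncertain to that extent. For Iglc1 and Iglc4, 0% occur in another annotated gene. Iglc1, Iglc3 and Iglv1 lie inside 2010309G21Rik, an antisense gene with a mean of 12.4 in spleen. Since the counting strand is not given in the sources used here, reads in stretches shared with that antisense gene could belong to either. The 0% for Iglc1 covers both strands, so its overlap was one of gene spans and not of shared 50-base stretches.

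Whether any member behaved differently in the 2 tissues was tested on the difference between the log2 fold changes. Of 13776 genes with the same symbol in both tables, 0.0581% passed an adjusted p of 0.05, and 0 of the 15 members did. At an unadjusted p under 0.05 there were 4.8% of all genes and 1 member. That member was Iglc3, with a spleen minus bone marrow difference of 0.60 ± 0.269 (adjusted p = 0.977, from the authors' deposited DESeq2 estimates). The difference for Ighg2b was -1.22 ± 1.11, with a 95% interval from -3.40 to 0.96, and for Ighg2c -0.94 ± 1.33, from -3.55 to 1.67. For Ighm it was 0.41 ± 0.516 and for Ighd -0.17 ± 0.168, the smallest error of the 15.

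The spread behind these values was among the largest in each table. Of 2931 bone marrow genes whose mean reached 500, 11 were members, and 6 of the 10 genes with the largest standard errors were members (9 of the 20 largest). Of 2016 such spleen genes, 11 were members, and 5 of the 10 largest standard errors belonged to them. In spleen the order began with Ighg3 (0.848), Ighg1 (0.787), Igha (0.775) and Ighg2c (0.743), against a median of 0.0870 for all 2016, by the authors' deposited table. The 4 IgG genes held ranks 4 to 7 in bone marrow, from 1.27 for Ighg3 to 1.02 for Ighg2b, against a median of 0.0953, by the authors' deposited table.

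Set beside genes with means within 2-fold of their own, the IgG genes and Igha had far larger standard errors in both tissues, and Ighm did so in bone marrow. In spleen the standard error of Ighg3 was 10.03 times the median of 1274 like genes, Ighg2c 9.04 times, Igha 8.99 times and Ighg2b 5.39 times. Ighd was at 1.17 times and Iglc3 at 1.07 times, with 77 of 261 and 240 of 583 like genes showing a larger error. In bone marrow the ratios were 12.8 for Ighg3, 7.49 for Igha, 6.98 for Igkc, 5.89 for Ighm and 1.23 for Ighd. Lambda genes again differed among themselves, with ratios in bone marrow of 9.22 for Iglc1, 3.88 for Iglc2 and 2.42 for Iglc3, and in spleen of 3.61, 1.20 and 1.07. Iglc1 had the largest ratio of these 3 lambda genes in both tables. A wide spread was not particular to immunoglobulin genes in spleen, where the median ratio was 2.67 over 15 members with a mean of at least 20, 3.85 over 10 neutrophil genes and 3.50 over 8 erythroid genes. In bone marrow the medians were 6.98 over 13 members, 1.13 for neutrophil genes and 1.29 for erythroid genes.

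A standard error, a mean and a number of libraries imply a coefficient of variation between libraries under a negative binomial model. For the 4 IgG genes in bone marrow this implied value was 99.9% to 124%, for Igkc 65.7%, for Igha 57.1%, for Ighm 48.5% and for Ighd 12.7%. In spleen it was 48.3% to 92.9% for the IgG genes, 84.9% for Igha, 28.1% for Igkc, 15.9% for Ighm and 10.7% for Ighd. Jchain, which links IgM and IgA polymers and is made by plasma cells, had 60.8% in bone marrow and 28.0% in spleen, close to Igkc in both. Whether 1 library carried this spread was not tested, since the tables give no values for single libraries.

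**Figure D3:**
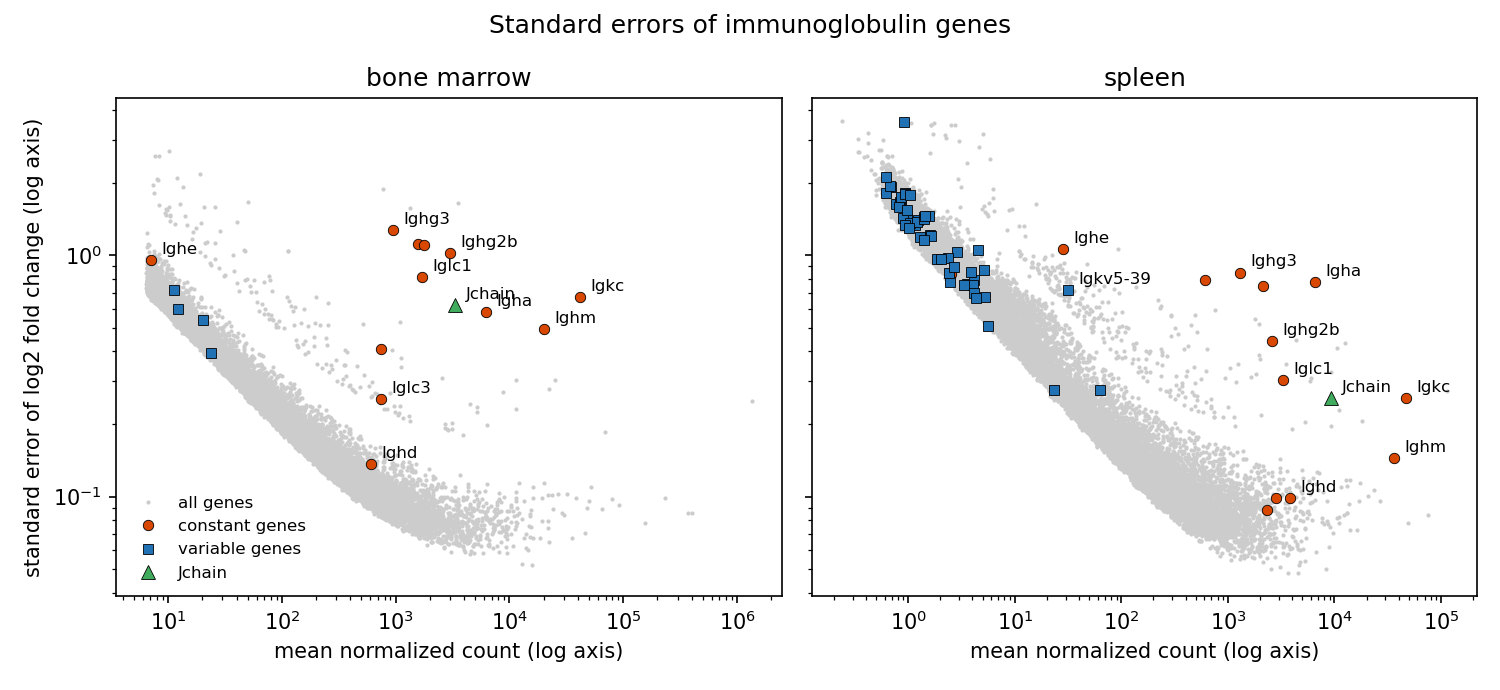
Each point is a gene, with its mean normalized count on the horizontal and the standard error of its log2 fold change on the vertical axis, both logarithmic, for all genes (grey), constant genes (orange), variable genes (blue) and Jchain (green). The IgG genes, Igha and Igkc lie far above genes of like mean, while Ighd lies near them at 0.136 in bone marrow and 0.0984 in spleen.

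These errors set what could have been called. The gene with the smallest absolute Wald score among those called had 3.65 in bone marrow and 4.10 in spleen. With its own standard error, Ighg3 would have reached that score at a 24.7-fold difference in bone marrow and an 11.1-fold difference in spleen, and Ighg2c at 16.3-fold and 8.24-fold. For Igkc the sizes were 5.43-fold and 2.07-fold, and for Ighm 3.49-fold and 1.51-fold. Ighd would have needed 1.41-fold and 1.32-fold. The comparisons of IgD, and of IgM in spleen, were therefore the most sensitive among the heavy chains.

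Variable genes were at low counts in both tables. QuantSeq reads near the 3' end, where a joined transcript carries its constant exons. These counts therefore do not measure how often each variable gene was used in antibodies. The highest variable gene in bone marrow was Iglv3 with a mean normalized count of 23.9, followed by Ighv8-6 with 20.2, Ighv8-12 with 12.2 and Iglv1 with 11.3. Their log2 fold changes in the authors' deposited table were -0.37 ± 0.392, 0.61 ± 0.538, -0.56 ± 0.600 and -0.55 ± 0.718, with DESeq2 adjusted p from 0.866 to 0.932. Ighv8-6 and Ighv8-12 belong to the same heavy variable family and had opposite signs. On GRCm38 they lie on chromosome 12 at 115165777 to 115166220 and 115647945 to 115648387, and 25.2% of the 50-base stretches of Ighv8-6 occur in another annotated gene.

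In spleen, Iglv1 had the highest mean of any variable gene, 62.5, at -0.25 ± 0.277 in the authors' deposited table. Iglv3, with a mean of 23.2, was at -0.04 ± 0.276 and Iglv2, with a mean of 4.35, at -0.71 ± 0.664 there. The 3 Ighv genes listed were Ighv4-1 (mean 1.41, -0.54 ± 1.44), Ighv8-6 (mean 1.28, -0.82 ± 1.19) and Ighv9-3 (mean 0.921, -2.66 ± 3.56) in the authors' deposited table. The mean of Ighv9-3 amounts to 9.21 normalized counts over 10 libraries, and its interval ran from -9.64 to 4.32. At such counts a fitted change is no bound.

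The kappa variable genes made up most of the members in spleen. Their 45 means summed to 120 normalized counts, of which Igkv5-39 alone (chr6:69900424-69900977, minus strand) held 31.8. The authors' deposited table put Igkv5-39 at -0.63 ± 0.716, a standard error 2.64 times the median of 3404 genes of like mean. Next in level were Igkv4-73, an annotated pseudogene (mean 5.60, -0.33 ± 0.508), Igkv19-93 (mean 5.29, -0.29 ± 0.669) and Igkv3-4 (mean 5.14, -1.20 ± 0.867) in the authors' deposited table. The smallest p among lower genes belonged to Igkv12-46 (-1.36 ± 0.754, DESeq2 unadjusted p = 0.0710), Igkv6-32 (-1.82 ± 1.16, p = 0.115) and Igkv10-96 (-1.20 ± 0.791, p = 0.129) in the authors' deposited table. Among higher genes the authors' deposited table had Igkv4-77, a pseudogene, first (2.34 ± 1.54, DESeq2 unadjusted p = 0.130). Igkv5-48 (0.89 ± 1.20) and Igkv15-103 (1.31 ± 1.91) followed in the authors' deposited table.

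Of the 45 Igkv genes, 35 were below 0 in spleen, the median was -0.63, and 0 had an unadjusted DESeq2 p under 0.05 by the authors' deposited table. Low-count genes in that table leaned the same way. Over the 6999 other genes in the mean range of the 44 Igkv genes with a mean under 20, 61.5% were below 0, with a median of -0.23, against 77.3% and -0.62 for those 44. The median standard error was 1.34 for these Igkv genes and 1.08 for the other genes. Igkc, at -0.28, had the same sign. The 4 joining segments listed in spleen, which the symbol rule leaves out, were also below 0, at means from 1.48 to 5.54. In the authors' deposited table Igkj2 was at -1.03 ± 0.635, Igkj1 at -1.42 ± 0.966, Igkj5 at -0.71 ± 0.736 and Igkj4 at -0.19 ± 1.05. Of these, 0 had an unadjusted DESeq2 p under 0.05.

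By variable family, all listed members of Igkv1 (5 of 5), Igkv3 (5 of 5), Igkv2 (3 of 3) and Igkv12 (3 of 3) were below 0, and 5 of 6 in Igkv6. Igkv4, which has 33 annotated genes, had 6 listed, 3 of them below 0 (median -0.05). Igkv14 had 1 of 3 below 0 (median 0.06), Igkv5 had 1 of 2 (median 0.13) and Igkv8 had 3 of 4 (median -0.40). Of families with 1 gene listed, Igkv15 (1.31) and Igkv16 (0.51) were above 0. Igkv9, Igkv10, Igkv13, Igkv17, Igkv18 and Igkv19, also with 1 gene each, were below 0. By position, the 23 genes nearer to Igkc, from 22.3 to 1025 kb away, had 20 below 0 and a median of -1.06, and the 22 farther ones, out to 3170 kb, had 15 below 0 and a median of -0.31. Genes on the strand of Igkc (18 of 22 below 0, median -0.67) and on the opposite strand (17 of 23, median -0.61) were alike in sign. No family or position was tested, since these genes share sequence. Of the 45, 32 shared at least one 50-base stretch with another annotated gene, up to 64.1% for Igkv6-20, and a median of 18.1%.

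**Figure D4:**
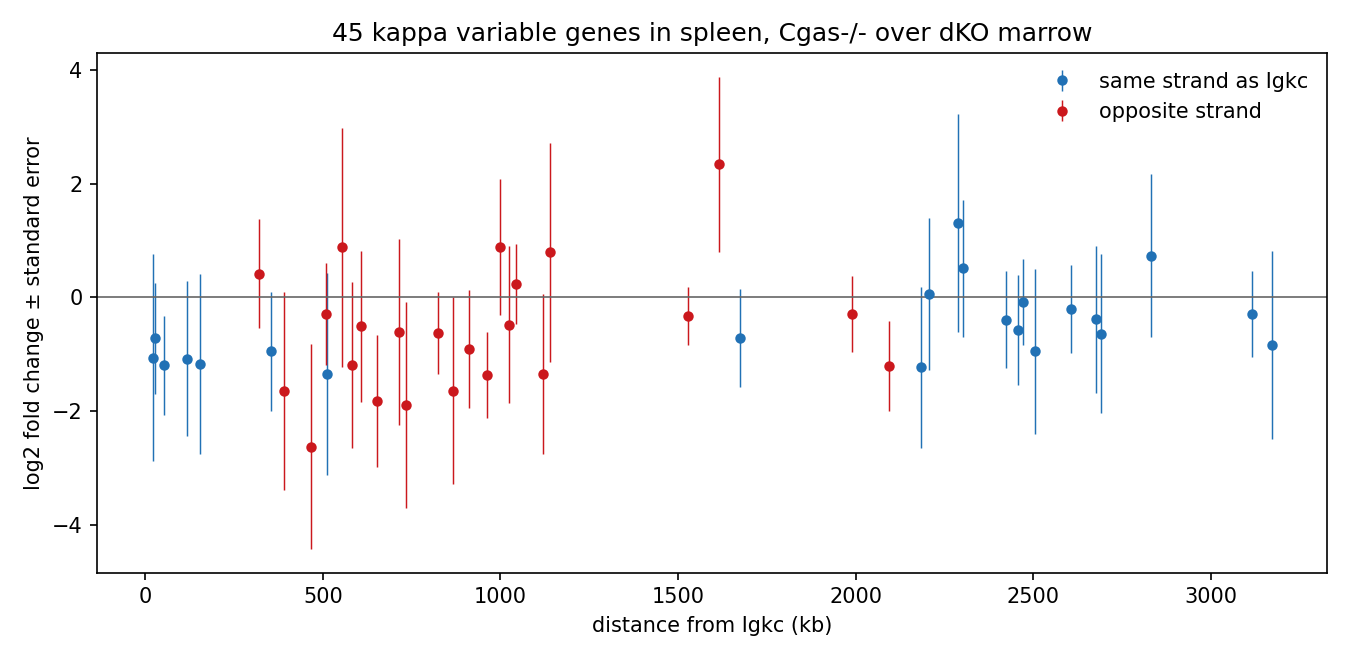
Points are log2 fold changes of the 45 kappa variable genes in spleen from the authors' deposited table, with their standard errors, against distance from Igkc in kb, on the strand of Igkc (blue) or the opposite one (red). Of the 23 genes nearest to Igkc 20 lie below 0, and of the 22 farther ones 15.

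Genes of the B lineage outside the immunoglobulin loci gave the setting. Plasma cell genes had a median of -0.13 in spleen, with 17 of 22 below 0, where 55.0% of all genes were. In bone marrow their median was -0.02, with 11 of 22 below 0, where 50.5% of all genes were. None passed the DESeq2 adjusted p in either direction. Of all genes, 1.85% in spleen and 4.65% in bone marrow were lower at an unadjusted DESeq2 p under 0.05. Of the plasma cell genes, 1 was lower at that p in each of the authors' deposited tables. In spleen it was Prdm1, which encodes the plasma cell factor BLIMP-1, at -0.42 ± 0.154 (DESeq2 unadjusted p = 0.00578), followed by the endoplasmic reticulum gene Derl3 at -0.35 ± 0.245, in the authors' deposited table. In bone marrow it was Xbp1, the unfolded protein response factor of secretory cells, at -0.27 ± 0.0986 (DESeq2 unadjusted p = 0.00575, adjusted p = 0.257), while Tent5c was at 0.29 ± 0.172 in the authors' deposited table. For Jchain the authors' deposited tables gave 0.07 ± 0.620 in bone marrow and -0.24 ± 0.256 in spleen. Among plasma cell genes it also had the largest standard error relative to genes of like mean, at 7.68 times in bone marrow and 2.74 times in spleen, where the list medians were 1.13 and 1.39.

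Progenitor genes were the 1 B lineage list with a call. Of 20 genes of B cell progenitors and V(D)J recombination in bone marrow, 1 passed higher and 0 lower (median 0.11). At an unadjusted DESeq2 p under 0.05, 4 of the 20 were higher and 0 lower in the authors' deposited table, where 4.19% and 4.65% of all genes were. The authors' deposited table put that gene, Dntt, the template-independent polymerase of V(D)J joints, at 0.64 ± 0.166 (DESeq2 adjusted p = 0.0311). It put Vpreb1 of the surrogate light chain at 0.76 ± 0.215 (DESeq2 adjusted p = 0.0638). In spleen 0 of 17 passed by DESeq2, and 0 had an unadjusted p under 0.05 (median 0.08, Cd93 at -0.23 ± 0.117 and Lig4 at 0.28 ± 0.149 in the authors' deposited table). Germinal centre and class switching genes had medians of 0.12 in bone marrow (11 listed) and 0.13 in spleen (13 listed) without a DESeq2 call and with 0 genes at an unadjusted p under 0.05. Bcl6, the germinal centre repressor, was at -0.16 ± 0.1005 in bone marrow and 0.13 ± 0.0748 in spleen, and Rgs13 at 0.47 ± 0.355 in spleen, in the authors' deposited tables. Marginal zone and B1 genes had medians of 0.11 and 0.09, with no DESeq2 call and, at an unadjusted p under 0.05, 0 genes in bone marrow and 1 in spleen, the antigen-presenting gene Cd1d1. It was at 0.26 ± 0.199 in bone marrow and 0.27 ± 0.117 in spleen, Cr2, also a mature B cell gene, at -0.20 ± 0.166 in bone marrow and S1pr3 at 0.35 ± 0.244 in spleen, in the authors' deposited tables. On the mature B cell list, Cd72 was at 0.22 ± 0.175 and 0.21 ± 0.0704, Cd37 at 0.12 ± 0.0998 in bone marrow and Fcer2a at -0.21 ± 0.0893 in spleen, in the authors' deposited tables.

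**Figure D5:**
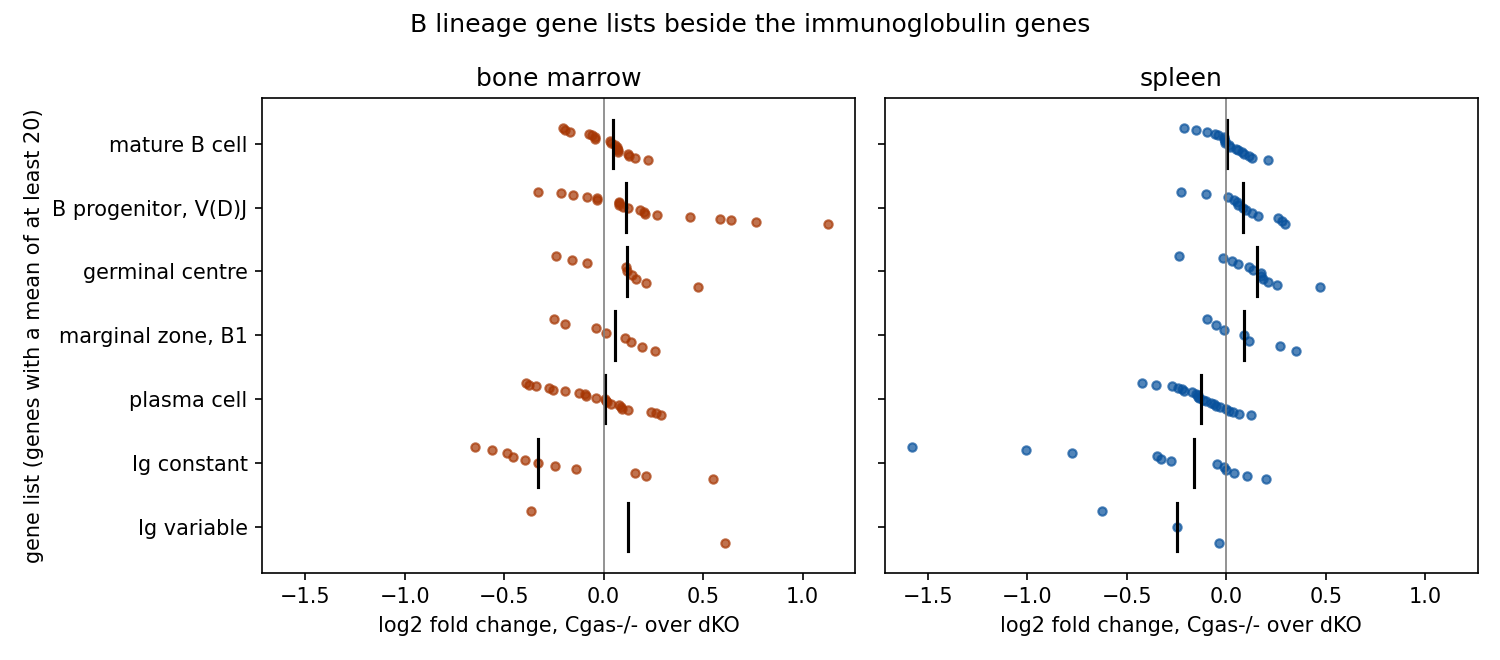
Points are log2 fold changes, by list, of genes whose mean reached 20, and black bars are the medians of those genes, for bone marrow (left) and spleen (right). The constant genes reach farther from 0 than the other lists in spleen, to -1.58 for Ighg2c, while mature B cell genes cluster around 0.

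Markers of some other cell types also had mostly the same sign within a comparison. Over all genes, 50.5% were below 0 in bone marrow and 55.0% in spleen. Erythroid genes had 9 of 9 above 0 in bone marrow (median 0.68, Hbb-bt at 0.84 ± 0.223 and Hba-a2 at 0.93 ± 0.278) and 9 of 9 below 0 in spleen (median -0.69) in the authors' deposited tables. Neutrophil genes had 9 of 10 below 0 in both (medians -0.15 and -0.51), and T cell genes had 11 of 12 above 0 in spleen (median 0.12) and 6 of 12 in bone marrow. At an unadjusted DESeq2 p under 0.05, 6 erythroid genes were higher in bone marrow, and 0 differed in spleen. Neutrophil genes had 1 lower in each tissue, and T cell genes 1 lower in bone marrow and 2 higher in spleen. Of all genes, 4.65% were lower and 4.19% higher at that p in bone marrow, and 1.85% and 1.17% in spleen. The smallest p in bone marrow went with Ly6g (-0.29 ± 0.105), Mmp8 (-0.18 ± 0.0959), Trbc2 (-0.57 ± 0.261) and Cd8a (-0.39 ± 0.422) by the authors' deposited table. In spleen they went with Elane (-0.91 ± 0.453), Mpo (-0.78 ± 0.499), Cd3g (0.37 ± 0.150), Trac (0.29 ± 0.135), Hba-a1 (-0.68 ± 0.355) and Hbb-bt (-0.57 ± 0.300) by the authors' deposited table. Of these lists 1 gene passed the DESeq2 test, Hbb-bt in bone marrow. Xist was at -0.10 ± 1.65 in bone marrow and 0.45 ± 0.126 in spleen by the authors' deposited tables. The part of any such cell type difference in the immunoglobulin values was not tested. In cell suspensions of a whole tissue, fewer cells of a type and less RNA per cell cannot be told apart.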

How the data were processed

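The files used were the authors' 2 deposited tables of DESeq2 results, for bone marrow (4 against 4 libraries) and spleen (5 against 5), each library placed by its label. Tools named by the submitters' processing notes are DESeq2, Partek, STAR 2.6.1 and bcl2fastq 1.8.4, with mm10 as the build. What did the counting, with which annotation, strand, read length and gene filter, is not given in the sources used here. Per the file headers, the authors deposited for each gene a mean normalized count (a signal averaged over the libraries after scaling), a log2 fold change with its standard error, a Wald score, a p-value and an adjusted p-value over the table, with a ranking score that was not used. The labels do not say that each library is another mouse, so p-values measure the spread between these samples only. The depth of single libraries is unknown, so no counts were tested.

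Members and lists were chosen with earlier results of these data known. The authors' DESeq2 adjusted p was read at 0.05. Named are all constant genes, the 4 highest by mean and the 3 smallest p per direction of each variable class and table, the targeted genes, and the 2 smallest p of each list per table. A gene that this rule names is not reported here. Intervals are the log2 fold change ± 1.96 standard errors. The difference between tissues was divided by the root of the summed squared standard errors, with a two-sided normal p and Benjamini-Hochberg adjustment over 13776 genes. On simulated data with those standard errors it recovered 72.5% of log2 differences of 1 and 97.6% of those of 2, with 5.31% false calls. The changed genes were drawn from all those with a mean of at least 20 in both tables. Those rates do not carry over to the IgG genes, whose differences had standard errors from 1.11 (Ighg2b) to 1.53 (Ighg3). The implied coefficient of variation assumes equal size factors and a negative binomial variance. It takes the pooled mean for both groups and leaves out the part of the variance due to counting. It was derived from the fitted standard error and is not a spread measured between libraries. Shared stretches of 50 bases were counted on both strands against all GENCODE M21 transcripts (GRCm38, the assembly of mm10). Python 3.11.15, pandas 2.3.3, numpy 2.4.6, scipy 1.17.1 and matplotlib 3.10.9 were used. Alternatives were other adjustment sets and thresholds, centring, a minimum mean of 20, leaving out pseudogenes and weighting by count.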

Additional observations from a re-analysis of the deposited data

How the results depend on the processing

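The counts of 0 called members in bone marrow, in spleen and in the difference between tissues were also 0 at a threshold of 0.1, with adjustment over genes with a mean of at least 20 and, for the tissues, over genes listed in both tables, and for the difference with each table centred. Without adjustment, at p under 0.05, they were 1 in bone marrow and 3 in spleen. The 11 class medians had 43 alternative values, of which 3 moved by more than the class's median standard error. Weighted by count, the spleen light constant median was -0.28 in place of 0.00, the value of Igkc (centred, it was -0.00). The bone marrow Ighv median over 2 genes was 0.61 in place of 0.02 both weighted and with a minimum mean of 20, the value of Ighv8-6. Weighting moved the spleen heavy constant median from -0.34 to -0.04, the value of Ighm. No paired analysis was possible because the tables hold no values per library, and for the same reason no library could be left out. Unknown depth and reading near the 3' end both limit what low-count variable genes can show.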
